A study of Homo sapiens with 18 samples.

Results

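The response to dexamethasone was measured in the empty-vector control line of H295R, a steroid-producing cell line established from an adrenocortical carcinoma. The groups were read from the sample titles. They are 3 arrays of control cells given dexamethasone at 100 nM for 6 h and 3 arrays of control cells given ethanol vehicle for 6 h, which is 6 of the 17 arrays with values and of the 18 described. Both groups carry the same stable, non-inducible pcDNA4 vector without an insert, and were kept in Zeocin, so the receptor present is the one that the line itself makes. Cells at 70% confluence had been without serum for 24 h when treatment began. The other arrays, used here for the spread and for comparison, are control cells with RU486 at 100 nM for 6 h (3 arrays) and the line stably over-expressing GRα, a form of the glucocorticoid receptor, with vehicle (3), dexamethasone at 100 nM (3) or RU486 at 100 nM (2), each for 6 h. Each line is 1 stable line, and the labels do not say whether it is a clone or a pool. The samples are called biological replicates without a statement that they were separate cultures, so p-values rest on the spread among these arrays, part of which may be technical, and 3 arrays a group limit the precision.

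Glucocorticoids such as dexamethasone cross the cell membrane and bind the glucocorticoid receptor (gene NR3C1), a transcription factor held by chaperones in the cytoplasm. The bound receptor enters the nucleus, binds DNA elements made of a pair of inverted half-sites, and raises the RNA of some genes while lowering that of others. In the body the adrenal cortex makes glucocorticoids under the control of ACTH, and these steroids lower ACTH release through the brain and pituitary. The comparison asks which genes of adrenocortical cells change with dexamethasone when no extra receptor has been added.

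Values are log2 array signals normalized by the authors, and a difference of 1 log2 is a doubling of signal. Over the 18417 genes tested, the 6 arrays correlated at 0.9949 to 0.997, against 0.9713 to 0.9768 between arrays of the control and GRα lines. The markers of adrenal cortex had a mean log2 level of 8.70 to 8.78 in the vehicle arrays and 8.75 to 8.80 in the dexamethasone arrays (10 of 10 markers measured), and among them DLK1 stood at 11.09 and MC2R, the ACTH receptor gene, at 5.5 with vehicle. Mean levels of markers of chromaffin (6 of 7 measured), fibroblast (7 of 7), endothelial (6 of 6), leukocyte (6 of 7) and epithelial (6 of 6) cells lay between 4.98 and 5.75 in all 6 arrays, and none of those markers was called (limma); 1 of them, LYZ, had an unadjusted p under 0.05. Single markers stood higher with vehicle, namely EPCAM at 7.51, COL1A1 at 7.08 and COL3A1 at 7.05, beside a median of 6.86 over all genes. No value of this table is 0, and detection above background was not tested. NR3C1 read 7.41, 7.28 and 7.38 in the vehicle arrays and 7.4, 7.38 and 7.23 in the dexamethasone arrays. The groups overlapped, and the difference was −0.02 ± 0.07 log2 (SE; 95% interval −0.16 to 0.12).

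Dexamethasone raised 39 genes and lowered 9. The largest rises were those of ZBTB16, a zinc finger transcription factor (2.67-fold), SLC26A2, a sulfate transporter (2.43-fold), and PER1, a clock gene (1.93-fold). The falls were smaller, the largest being RANBP3L, a nuclear export factor (1.45-fold), and they included the transcription factor genes NR4A3, MYB and SOX4 and the cyclin gene CCND2. The call required an adjusted p (Benjamini-Hochberg) below 0.05 in a limma fit over all 17 arrays. The 48 calls are 0.261% of the genes tested, 0.212% being rises and 0.0489% falls. Of the rises, 2 reached 1 log2 and 14 reached 0.5 log2, and 1 of the falls reached 0.5 log2. The median change was 0.46 log2 among the rises and −0.35 log2 among the falls.

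In every one of the 48 called genes the 3 dexamethasone arrays lay wholly above or wholly below the 3 vehicle arrays. The call used the same arrays, so this describes the calls and adds no support to them; 12.7% of all genes showed such a separation. Over all genes, 904 had an unadjusted p under 0.05, where 921 would be expected if none responded. The number called depended on the arrays. It was 23, 17 and 17 without control vehicle A, B or C, and 17, 17 and 19 without control dexamethasone A, B or C. It was 23 when only these 6 arrays were fitted, which leaves fewer arrays to estimate the spread, and 82 without the array of GRα vehicle B, which enters only through that spread. The same direction was kept by all 48 genes in every one of these fits, which was fixed in advance and adds no support. Their groups did not overlap, and the fits with only the 6 arrays or without GRα vehicle B left the group means compared unchanged.

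**Figure D1:**
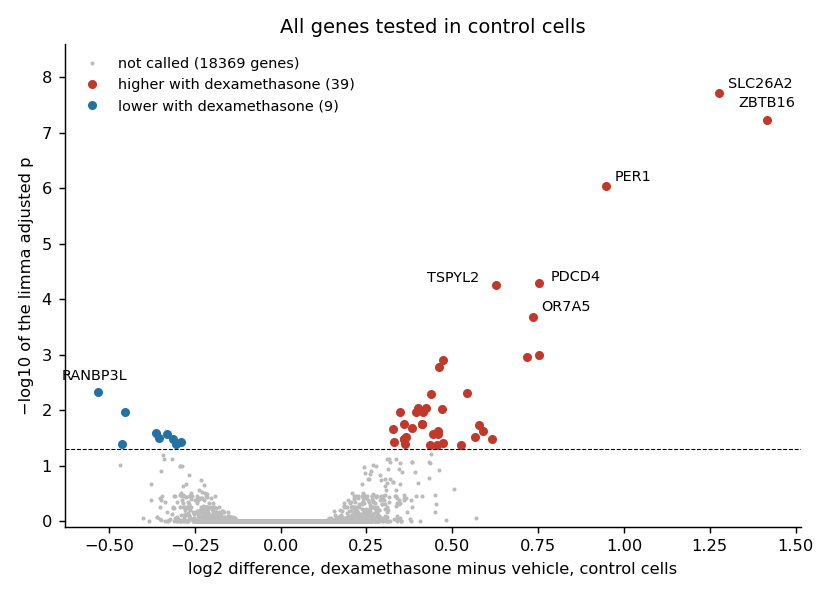
Each point is 1 of 18417 genes, with the log2 difference between dexamethasone and vehicle in control cells on the horizontal axis and −log10 of the limma adjusted p on the vertical axis. The dashed line marks an adjusted p of 0.05; 39 genes above it lie to the right and 9 to the left, and ZBTB16, SLC26A2 and PER1 stand apart from the rest.

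Transcription factors and the clock. ZBTB16, also called PLZF, is a zinc finger transcription factor known to respond to glucocorticoids in many cells. It read 5.99, 6.32 and 6.28 with vehicle and 7.59, 7.6 and 7.66 with dexamethasone. The dexamethasone arrays were close to each other and far above the vehicle arrays, which spread more. The difference was 1.42 ± 0.09 log2 (SE, n = 3 each; limma adjusted p = 5.88e-08).

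PER1 encodes a repressor in the feedback loop of the circadian clock. Its vehicle arrays read 6.87, 6.84 and 6.95 and its dexamethasone arrays 7.82, 7.93 and 7.74. Every treated array was higher than every vehicle array, by 0.95 ± 0.07 log2 on average (SE, n = 3 each; limma adjusted p = 9.11e-07). PER1 was the only call among 18 clock genes, whose median change was −0.03 log2, beside −0.01 over all genes. PER2 (0.17 ± 0.08), CRY1 (0.18 ± 0.09) and CRY2 (0.16 ± 0.07), which encode its partner repressors, also had every dexamethasone array above every vehicle array without being called. NR1D1, a nuclear receptor of the clock, had all arrays below, at −0.31 ± 0.09 log2 (limma adjusted p = 0.347). Over all genes 5.04% had all dexamethasone arrays above and 7.7% all below. This list of clock genes and the lists below were drawn up with earlier results of these data known. A single call in such a list, beside 0.261% of all genes, is therefore not independent evidence.

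MEIS1, a homeobox transcription factor, read 9.7, 9.6 and 9.68 with vehicle and 10.18, 10.08 and 10.14 with dexamethasone. The groups were well apart, and the rise was 0.47 ± 0.06 log2 (limma adjusted p = 0.00124). ZNF521, a zinc finger factor, rose by 0.40 ± 0.06 log2.

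NR4A3 encodes an orphan nuclear receptor that trophic hormones induce in adrenal cells as an early response gene. It read 8.14, 8.04 and 8.12 with vehicle and 7.7, 7.71 and 7.52 with dexamethasone. All treated arrays were lower, by 0.46 ± 0.09 log2 (log2 difference −0.46, limma adjusted p = 0.0405), a call lost without any 1 of the 6 arrays (adjusted p 0.11 to 0.283). The related genes NR4A2 (−0.21 ± 0.11) and NR4A1 (−0.07 ± 0.07) were not called. NR4A3 was the only call among 19 immediate-early genes (median −0.04 log2) and among 14 adrenocortical transcription factors (median −0.05).

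MYB, a proto-oncogene transcription factor, read 7.43, 7.33 and 7.4 with vehicle and 7.04, 7.05 and 6.98 with dexamethasone. The groups did not overlap, and MYB fell by 0.36 log2 (limma adjusted p = 0.0254). SOX4, a factor of progenitor cells, fell by 0.30 log2. NR5A1, also called SF-1, which drives steroidogenic genes, read 8.66, 8.72 and 8.69 with vehicle and 8.94, 9.02 and 9.14 with dexamethasone. Its arrays did not overlap, yet the difference of 0.34 ± 0.08 log2 was not called (limma adjusted p = 0.116). PPARGC1A, a coactivator of metabolic genes, had a difference of −0.29 ± 0.06 log2 and was not called either (limma adjusted p = 0.101).

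**Figure D2:**
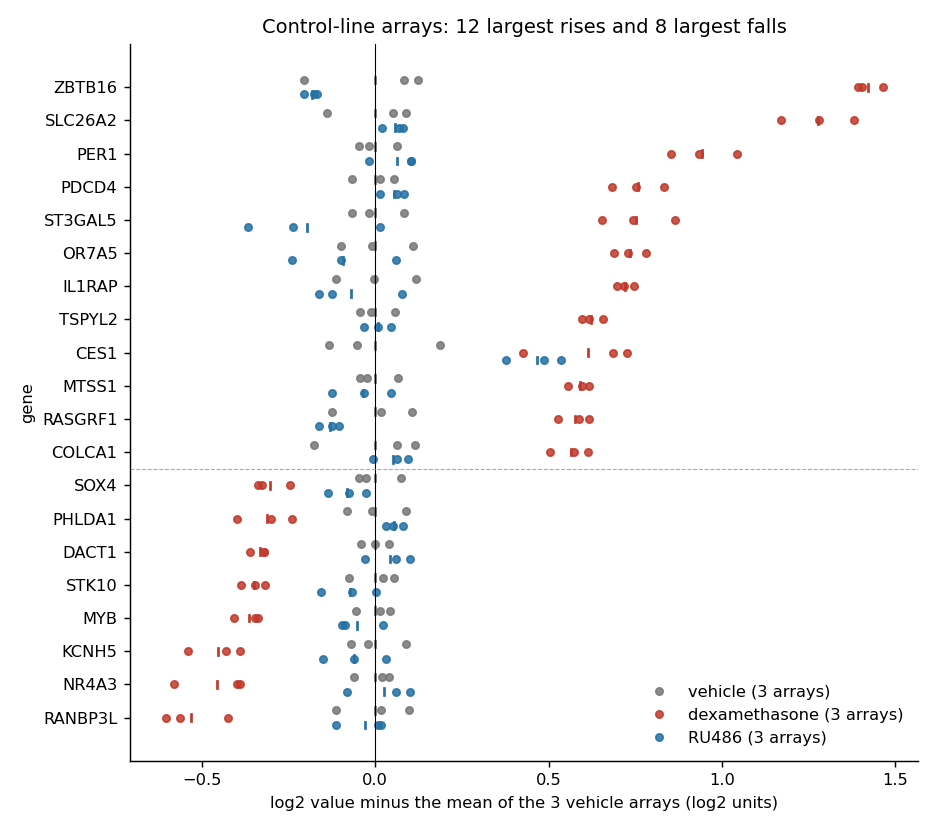
Each row is 1 gene, the 12 largest rises above the dashed line and the 8 largest falls below it, and each point is 1 control-line array, as its log2 value minus the mean of the 3 vehicle arrays; short bars are group means. Dexamethasone points (red) lie apart from the vehicle points (grey) in every row, and the RU486 points (blue) lie near the vehicle points except for CES1.

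Sulfate and sialic acid. SLC26A2 brings inorganic sulfate into the cell, where it is used for sulfating proteoglycans and steroids. It read 7.56, 7.37 and 7.6 with vehicle and 8.89, 8.79 and 8.68 with dexamethasone. The treated arrays were more than 1 log2 above every vehicle array, and the rise of 1.28 ± 0.07 log2 had the lowest adjusted p of all genes (limma, 1.95e-08). The other genes of sulfate transport and sulfation did not follow it. SLC26A2 was the only call among 14 members, the median being −0.03 log2, and SULT2A1, the sulfotransferase that makes DHEA sulfate, read 9.60 ± 0.13 with vehicle and 9.52 ± 0.17 with dexamethasone (SD, n = 3 each).

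ST3GAL5 makes the ganglioside GM3 by adding sialic acid to lactosylceramide. Its arrays read 8.67, 8.57 and 8.52 with vehicle and 9.45, 9.24 and 9.33 with dexamethasone. All treated arrays were higher, and the rise was 0.75 ± 0.09 log2 (limma adjusted p = 0.001). ST3GAL5 was the only call among 19 genes of glycosphingolipid synthesis (median −0.01 log2). UGCG (0.23 ± 0.07) and B4GALT5 (0.21 ± 0.06), which act before it in the pathway, had every dexamethasone array above the vehicle arrays but adjusted p-values of 0.482 and 0.398 (limma). ST3GAL1, a sialyltransferase acting on glycoproteins, rose by 0.41 ± 0.07 log2.

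Translation and the cell cycle. PDCD4 encodes an inhibitor of the translation helicase eIF4A. It read 9.68, 9.56 and 9.64 with vehicle and 10.46, 10.31 and 10.38 with dexamethasone. The groups were far apart, and the rise was 0.75 ± 0.07 log2 (limma adjusted p = 5.02e-05). It was the only call among 15 brakes of mTOR and translation (median −0.03 log2). DDIT4, an inhibitor of mTOR that is a known glucocorticoid target, had all treated arrays above the vehicle arrays but was not called (0.30 ± 0.12 log2).

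TSPYL2, a nucleosome assembly protein that slows cell division, read 7.62, 7.72 and 7.65 with vehicle and 8.26, 8.28 and 8.32 with dexamethasone. The arrays of each group were close to each other and the groups far apart, and the rise was 0.63 ± 0.06 log2 (limma adjusted p = 5.58e-05). CCND2, which encodes cyclin D2, read 9.02, 8.92 and 8.94 with vehicle and 8.74, 8.67 and 8.6 with dexamethasone, a fall of 0.29 log2 (limma adjusted p = 0.0379). Every treated array was lower, but the call was lost without any 1 of the 6 arrays. CCND2 was the only call among 24 cell cycle genes (median −0.04 log2).

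Receptors and signalling. IL1RAP is the accessory chain that lets interleukin-1 receptors signal. It read 7.01, 6.78 and 6.89 with vehicle and 7.64, 7.61 and 7.59 with dexamethasone. The treated arrays were nearly alike and all higher, with a rise of 0.72 ± 0.09 log2 (limma adjusted p = 0.00111). It was the only call among 18 genes of interleukin-1 and NF-kB signalling (median −0.001 log2). NFKBIA, the NF-kB inhibitor known as a glucocorticoid target, stood 0.20 ± 0.07 log2 higher and the decoy receptor gene IL1R2 at −0.24 ± 0.07, neither called.

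Genes that restrain growth factor signalling were among the rises. DUSP6, a phosphatase of ERK, read 7.87, 7.65 and 7.84 with vehicle and 8.31, 8.41 and 8.28 with dexamethasone. ERRFI1, a feedback inhibitor of EGF receptors, read 7.82, 7.82 and 7.77 with vehicle and 8.34, 8.25 and 8.21 with dexamethasone. Neither gene's groups overlapped, and the rises were 0.54 ± 0.08 log2 for DUSP6 (limma adjusted p = 0.00484) and 0.46 ± 0.06 for ERRFI1 (0.00167). These 2 were the calls among 14 feedback genes, 14.3% of the list, beside 0.261% of all genes. The list's median was 0.08 log2. It was drawn up with earlier results of these data known, so its share is not independent evidence. SPRED1, an inhibitor of the Ras-ERK pathway (0.26 ± 0.06), DUSP1 (0.24 ± 0.08) and DUSP4 (0.21 ± 0.13) had all treated arrays above the vehicle arrays and were not called, while DUSP10 (−0.29 ± 0.11) and SPRY2 (−0.20 ± 0.10) had all below. PHLDA1, which was lower with dexamethasone, read 8.85, 8.92 and 9.02 with vehicle and 8.69, 8.63 and 8.53 with dexamethasone, a fall of 0.31 log2 (limma adjusted p = 0.033).

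RASGRF1, an exchange factor that activates Ras, read 6.38, 6.47 and 6.24 with vehicle and 6.95, 6.89 and 6.98 with dexamethasone. The arrays did not overlap, and it rose by 0.58 ± 0.10 log2 (limma adjusted p = 0.0181). The call held in 1 of the 6 fits without 1 of the arrays compared (highest limma adjusted p 0.124). It held in 11 of 12 other settings of the fit, and the highest limma adjusted p among these was 0.962. Other genes of small GTPase signalling that rose were RASSF8 (0.35 ± 0.06) and the Ral exchange factor gene RGL1 (0.33 ± 0.06). Among cell surface receptors, CXCR4, the receptor of the chemokine CXCL12, rose by 0.53 ± 0.10, ROR2, a Wnt receptor kinase, by 0.41 ± 0.07 and MERTK, a receptor kinase for engulfing dead cells, by 0.36 ± 0.07 log2. The morphogen gene SHH rose by 0.47 ± 0.07 and ITPR1, the calcium release channel of the endoplasmic reticulum, by 0.47 ± 0.09. INPP4A, a phosphoinositide phosphatase, rose by 0.39 ± 0.06.

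DACT1, a modulator of Wnt signalling, read 9.21, 9.25 and 9.17 with vehicle and 8.89, 8.89 and 8.85 with dexamethasone. The groups were tight and apart, and it fell by 0.33 log2 (limma adjusted p = 0.0271). None of 15 Wnt targets was called (limma); 3 had an unadjusted p under 0.05, and the median was −0.03 log2. The Wnt antagonist gene DKK1 missed the threshold by the least of the genes that were lower (−0.34 ± 0.07 log2, limma adjusted p = 0.0639).

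Metabolism, membrane and cytoskeleton. CES1 encodes a carboxylesterase that can hydrolyse lipid esters. It read 6.06, 6.3 and 5.98 with vehicle and 6.54, 6.84 and 6.8 with dexamethasone. The groups did not overlap, but both spread widely, and the rise of 0.61 ± 0.12 log2 (limma adjusted p = 0.033) was called in 2 of the 6 fits that left 1 array out (highest adjusted p 0.217). HERPUD1, which acts in the degradation of misfolded proteins of the endoplasmic reticulum, rose by 0.42 ± 0.07. ATP1B1, the β1 subunit of the sodium pump, rose by 0.42 ± 0.07, PRKAB2, a subunit of the energy sensor AMPK, by 0.46 ± 0.08, the fatty acid desaturase family gene FADS3 by 0.45 ± 0.08, the mitochondrial phospholipase gene PLD6 by 0.36 ± 0.06 and the phosphatase gene CPPED1 by 0.36 ± 0.07 log2.

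MTSS1, which bends membranes at actin-rich protrusions, read 7.8, 7.71 and 7.69 with vehicle and 8.29, 8.35 and 8.33 with dexamethasone. The treated arrays were all higher, by 0.59 ± 0.11 log2 (limma adjusted p = 0.0236). PALLD, an actin-binding protein, rose by 0.36 ± 0.07, the scaffold protein gene MPP3 by 0.44 ± 0.09 and CNST, which targets connexins to the cell surface, by 0.44 ± 0.06. STK10, a kinase that acts on proteins linking actin to the membrane, read 7.58, 7.71 and 7.68 with vehicle and 7.27, 7.34 and 7.31 with dexamethasone, a fall of 0.35 log2 (limma adjusted p = 0.0311).

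OR7A5, an olfactory receptor gene, read 4.65, 4.44 and 4.53 with vehicle and 5.32, 5.27 and 5.23 with dexamethasone. Every treated array was higher, by 0.73 ± 0.08 log2 (limma adjusted p = 2.05e-04), from the lowest vehicle level among the called genes, so the fold is of a dim signal. COLCA1 read 6.93, 6.69 and 6.98 in the vehicle arrays and 7.48, 7.44 and 7.37 in the treated arrays, all higher. It rose by 0.57 ± 0.11 log2 (limma adjusted p = 0.0299). Other rises were those of the protease gene KLK4 (0.46 ± 0.08), SAMD3 (0.46 ± 0.09) and MMD2 (0.36 ± 0.07).

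RANBP3L read 7.58, 7.37 and 7.5 with vehicle and 7.06, 6.88 and 6.92 with dexamethasone. It fell by 0.53 log2 (limma adjusted p = 0.00478), without overlap. The potassium channel gene KCNH5 read 6.81, 6.65 and 6.7 with vehicle and 6.33, 6.29 and 6.18 with dexamethasone, and all treated arrays were lower. Its fall was 0.45 log2 (limma adjusted p = 0.0106).

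Textbook glucocorticoid targets responded in part. Of 41 measured genes of a list of glucocorticoid-induced genes, 3 rose (ZBTB16, PER1 and ERRFI1) and 0 fell (limma), and 13 had an unadjusted p under 0.05. Among the 13, SGK1, ANXA1 and IL1R2 were lower and the rest higher. Over all 18417 genes, 904 had such a p. The 3 calls are 7.32% of the list, beside 0.261% called among all genes, and the median was 0.10 log2 beside −0.01 over all genes. In 15 of the 41 (36.6%) every dexamethasone array lay above every vehicle array, beside 5.04% of all genes, and in 3 every array lay below, beside 7.7%. The list was drawn up with earlier results of these data known, so its direction is not independent evidence. Uncalled genes with separated arrays included BCL6, a transcriptional repressor (0.30 ± 0.08 log2), TSC22D3, also called GILZ (0.25 ± 0.11), DUSP1 (0.24 ± 0.08), NFKBIA (0.20 ± 0.07), TAT, a tyrosine-degrading enzyme (0.20 ± 0.09), and MAOA, monoamine oxidase A (0.16 ± 0.08). TSC22D3 read 7.98, 8.12 and 7.99 with vehicle and 8.2, 8.28 and 8.36 with dexamethasone.

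The kinase gene SGK1, a target induced by glucocorticoids and mineralocorticoids in many tissues, went the other way. It read 7.35, 7.11 and 7.36 with vehicle and 7.08, 7.05 and 7.01 with dexamethasone, a difference of −0.23 ± 0.07 log2 that was not called (limma adjusted p = 0.536). ANXA1 (−0.20 ± 0.08) and IL1R2 (−0.24 ± 0.07) were the others with every dexamethasone array below, and KLF9, a receptor target in many cells, differed by 0.12 ± 0.07 log2 with overlapping arrays. Of the related families, 3 of 4 TSC22 genes and 5 of 10 metallothioneins had every treated array above the vehicle arrays (medians 0.18 and 0.09 log2), and 0 of either were called (limma); 2 and 0 had an unadjusted p under 0.05. TSC22D1 was close to the threshold, at 0.34 ± 0.07 log2 (limma adjusted p = 0.0744).

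**Figure D3:**
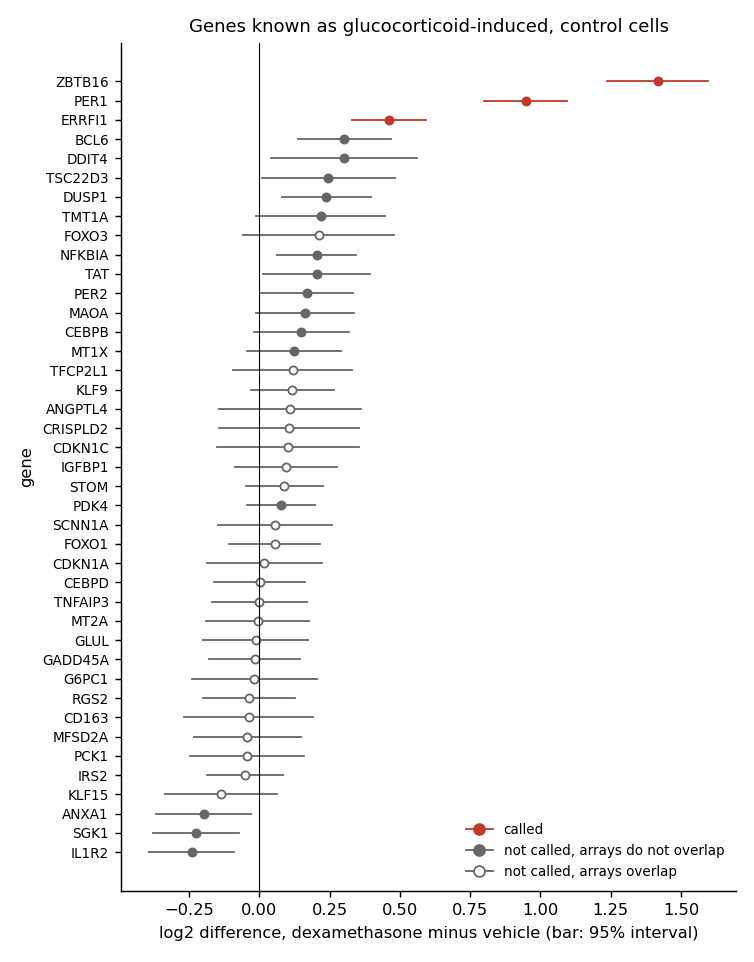
The horizontal axis gives the log2 difference between dexamethasone and vehicle in control cells, with its 95% interval from the limma fit, for 41 genes known as glucocorticoid-induced, 1 gene a row. Red genes were called (3); filled grey points had no overlap between the 3 treated and 3 vehicle arrays and open points overlapped.

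Of the genes of steroid synthesis 1 was called. FDX1 encodes ferredoxin 1 (adrenodoxin), which carries electrons to the mitochondrial steroidogenic P450 enzymes. It read 8.51 in each of the vehicle arrays and 8.91, 8.83 and 8.94 with dexamethasone. All treated arrays were higher, and the rise was 0.38 ± 0.07 log2 (1.30-fold, limma adjusted p = 0.0208), but the call was lost without any 1 of the 6 arrays (adjusted p 0.0521 to 0.139). FDX1 was the only call among 23 measured genes of the list (4.35%, beside 0.261% of all genes, with a list median of −0.01 log2).

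For the other 22 the 95% interval lay within 0.5 log2 on either side of 0 in 21. The same held for 18050 of all 18417 genes, so it does not set this list apart. That bound is also wider than the median called rise of 0.46 log2. STAR, which delivers cholesterol to the inner mitochondrial membrane, differed by 0.07 (95% interval −0.09 to 0.23), CYP11A1, the side-chain cleavage enzyme that starts steroid synthesis, by 0.02 (−0.15 to 0.20), and CYP17A1, the enzyme leading to cortisol and androgens, by −0.06 (−0.22 to 0.10) log2. CYP11B1, the last step to cortisol, differed by 0.07 (−0.18 to 0.32), CYP11B2, the aldosterone synthase, by 0.11 (−0.11 to 0.34), and SULT2A1 by −0.08 (−0.27 to 0.11). MC2R differed by −0.04 (−0.34 to 0.25). The gene whose interval reached further was HSD3B2, the adrenal 3β-hydroxysteroid dehydrogenase, at −0.33 (−0.65 to −0.01) log2 with all dexamethasone arrays below all vehicle arrays (limma adjusted p = 0.995). In control cells its SD was 0.02 with vehicle and 0.07 with dexamethasone. With RU486 it was 0.37 in control and 0.41 in GRα cells, and these arrays enter the spread of the fit. With only the 6 arrays compared, the limma adjusted p was 0.124, still without a call.

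**Figure D4:**
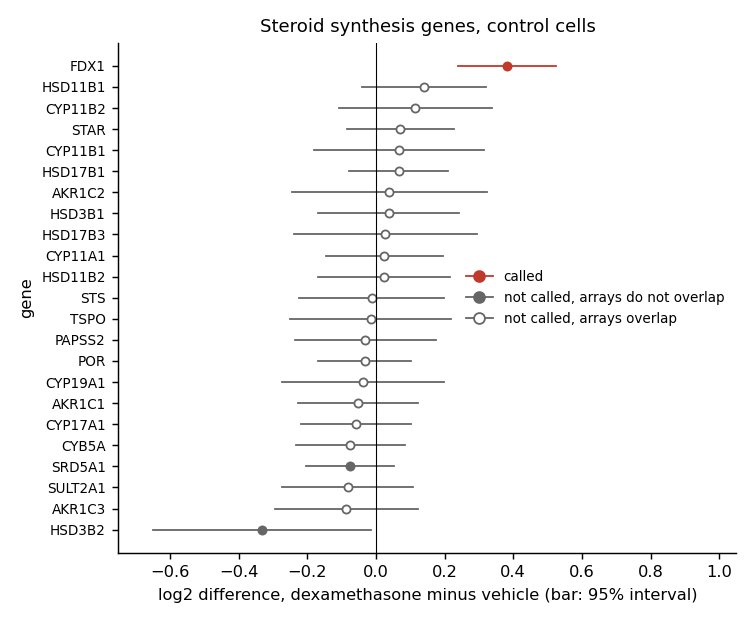
The horizontal axis gives the log2 difference between dexamethasone and vehicle in control cells with its 95% interval, for 23 steroid synthesis genes, 1 gene a row. FDX1 (red) was called. HSD3B2 at the bottom and SRD5A1 (filled grey) had no overlap between treated and vehicle arrays. Every interval but those of FDX1 and HSD3B2 includes 0.

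The letters upstream of the start of transcription were searched for the receptor's element. RefSeq's promoter table (GRCh38.p14) held 29 of the 39 rises and 7 of the 9 falls, and the 250 bases before each start were read. The element searched was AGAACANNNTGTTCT, which reads the same on both strands and holds the half-site AGAACA and its reverse complement TGTTCT. No promoter of 14239 tested genes held all 12 fixed letters in this window, and 9 (0.0632%) held all but 1. FDX1 was 1 of these 9 and the only called gene among them, and it is shown because it is also the steroid synthesis gene that rose. COLCA1 is shown because it held the half-site at 2 places and is a close neighbour of FDX1, with 2 tested genes between them on chromosome 11. Capitals mark the half-sites or the element's fixed letters.
FDX1: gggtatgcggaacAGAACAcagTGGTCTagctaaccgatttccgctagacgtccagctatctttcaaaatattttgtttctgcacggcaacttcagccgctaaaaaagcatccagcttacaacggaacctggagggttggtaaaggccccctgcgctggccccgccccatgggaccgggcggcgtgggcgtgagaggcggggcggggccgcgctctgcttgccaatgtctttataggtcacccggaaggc
COLCA1: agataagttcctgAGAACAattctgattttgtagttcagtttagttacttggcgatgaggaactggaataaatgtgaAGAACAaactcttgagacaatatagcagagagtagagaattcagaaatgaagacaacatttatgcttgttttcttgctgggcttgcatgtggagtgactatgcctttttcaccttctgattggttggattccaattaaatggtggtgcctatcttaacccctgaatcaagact

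The FDX1 stretch is chr11:110429698-110429947 on the plus strand, and its element-like run AGAACAcagTGGTCT starts at −237 from the start of transcription, at chr11:110429711-110429725. It differs from the element by T12G, counted from 1 at the element's 5′ end. The COLCA1 stretch is chr11:111305049-111305298 on the minus strand, with AGAACA starting at −237 and −173. The half-site by itself was found in 3 of the 29 rises (10.3%), the third being PRKAB2, in 0 of the 7 falls, and in 9.08% of all 14239 promoters. A match is a run of letters, not a binding site, and its part in these changes was not tested.

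The remaining lists held no call by limma. Of 21 inflammatory genes that glucocorticoids repress in immune and stromal cells 0 were called (6 at an unadjusted p under 0.05, median 0.02 log2). Their median vehicle level was 5.38 log2, beside 6.86 over all genes. Many of them are therefore dim, and the count of 0 does not show that repression is absent. Of the 6 with an unadjusted p under 0.05, PLAU, MMP1, CCL20, IL6 and TNF stood higher with dexamethasone and VCAM1 lower. Over all 18417 genes, 904 had such a p. VCAM1, an adhesion receptor, had every treated array lower (−0.21 ± 0.07, vehicle level 9.756). PLAU, a urokinase, had every treated array higher (0.25 ± 0.08, vehicle level 5.385). Of 26 genes of ACTH and angiotensin signalling 0 were called (6 at an unadjusted p under 0.05, median −0.01). Of these 6, PRKCH, CACNA1C and AGTR1 stood higher, and KCNK9 (−0.27 ± 0.10), PDE11A (−0.24 ± 0.08) and KCNK3 (−0.16 ± 0.07) lower. AGTR1, the angiotensin II receptor, had every treated array higher (0.27 ± 0.07 log2, limma adjusted p = 0.342). Counts of 0 were also found for 18 genes of cholesterol synthesis and uptake (0 at an unadjusted p under 0.05), 12 receptor chaperones (0), 12 receptor coregulators (2), 6 steroid receptors (0), 15 members of the BCL2 family (2), 17 Kruppel-like factors (0), 19 FOXO targets and autophagy genes (0) and 4 genes of the SGK group (2). Their medians lay between −0.06 and 0.04 log2.

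The response was then set beside that of the GRα line, which shares no array with it. In the fit, the control response minus the GRα response was called for 3 of the 48 genes, beside 0.0652% of all genes. ZBTB16 differed by −1.07 ± 0.12 log2 (control minus GRα; limma adjusted p = 0.00153), RASGRF1 by −1.03 ± 0.14 (0.00538) and OR7A5 by −0.95 ± 0.11 (0.0022). In each the rise was smaller in control cells. ZBTB16 rose by 1.42 in control and 2.49 in GRα cells, RASGRF1 by 0.58 and 1.60, and OR7A5 by 0.73 and 1.68 log2. The difference was not called for SLC26A2 (−0.28, 95% interval −0.49 to −0.08), PER1 (−0.39, −0.60 to −0.18), PDCD4 (−0.02, −0.24 to 0.20) or DUSP6 (−0.04, −0.28 to 0.20). CNST (−0.50 ± 0.09) and ERRFI1 (−0.46 ± 0.09) came close, with adjusted p-values of 0.0609 and 0.0675 (limma).

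Of the 39 rises, 9 had a larger value in control than in GRα cells, and none of these differences was called (lowest limma adjusted p = 0.268). COLCA1 rose by 0.57 in control cells and stood at −0.03 ± 0.11 in GRα cells, a difference of 0.59 log2 (95% interval 0.28 to 0.91, adjusted p = 0.268). CES1 stood at 0.61 and 0.14 (0.12 to 0.82 for the difference), SAMD3 at 0.46 and 0.16 (0.02 to 0.56), INPP4A at 0.39 and 0.20 (0.00 to 0.38), FDX1 at 0.38 and 0.21 (−0.03 to 0.37) and PALLD at 0.36 and 0.26 (−0.11 to 0.30). These 6 were the rises without a call in GRα cells, where 2.02% of all genes were called, 1.36% higher; the other 33 rises and 7 falls were called there too. Among the falls CCND2 (−0.29 and −0.16 log2) and STK10 (−0.35 and −0.11) had no call there, where 0.662% were called lower, and all 9 falls were below 0 in both lines.

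**Figure D5:**
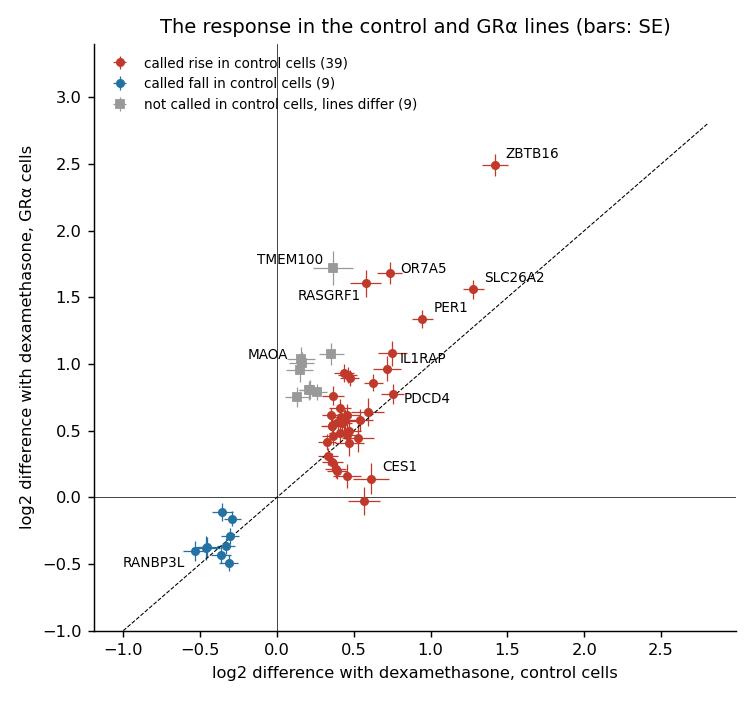
Each point is 1 gene, with the log2 difference between dexamethasone and vehicle in control cells on the horizontal axis and in GRα cells on the vertical axis; bars are standard errors of the limma fit and the dashed line marks equal values. ZBTB16, OR7A5 and RASGRF1 lie far above the line, SLC26A2 and PDCD4 near it, and CES1 below it; grey squares are 9 genes not called in control cells whose response differed between the lines.

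RU486 (mifepristone), which binds the same receptor as an antagonist or partial agonist, was given to control cells at the same dose and time. That comparison uses the same vehicle arrays and called 0 genes (limma); 621 had an unadjusted p under 0.05. For 38 of the 39 rises every RU486 array lay below every dexamethasone array, and for all 9 falls every RU486 array lay above. These genes were called with the same dexamethasone arrays, and the share over all genes was not counted. The separation therefore describes the called genes and is not a test of RU486. ZBTB16 read 6.03, 5.99 and 6.02 with RU486, SLC26A2 7.59, 7.53 and 7.58, and PER1 6.87, 6.99 and 6.99. These values lie at or near the vehicle levels given above. Over the 39 rises the difference between RU486 and vehicle ran from −0.20 log2 for ST3GAL5 to 0.47 for CES1, with a median of −0.04, and the next highest was PALLD at 0.14. CES1 read 6.49, 6.65 and 6.6 with RU486, all above its vehicle arrays and partly within its dexamethasone arrays, without a call (limma adjusted p = 0.999).

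The calls differed in how far they rested on single arrays. The 12 rises of ZBTB16, SLC26A2, PER1, PDCD4, ST3GAL5, OR7A5, IL1RAP, TSPYL2, DUSP6, MEIS1, ERRFI1 and CNST, and the fall of RANBP3L, were called in each of the 6 fits without 1 of the arrays compared. Of the rises, 14 were called in none of them, among which were MTSS1, COLCA1, CXCR4, ITPR1, KLK4, SAMD3, MPP3, ST3GAL1, FDX1, MERTK, PALLD, MMD2 and RGL1. The falls of CCND2, SOX4, DACT1, STK10, MYB and NR4A3 were also called in none. The other 13 rises and the falls of PHLDA1 and KCNH5 were called in 1 to 3 of the 6. Just outside the threshold lay CPEB4, a regulator of polyadenylation (0.44 ± 0.09 log2, limma adjusted p = 0.0605), DKK1, TSC22D1, FRMD4B (−0.32 ± 0.07, 0.0758) and the organic cation exporter gene SLC47A1 (0.31 ± 0.07, 0.0758). Just inside lay CXCR4 and SAMD3, both at 0.0423.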

How the data were processed

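Per the labels' protocols, total RNA (100 ng) was labelled as biotinylated cDNA made with random hexamers. The authors deposited 1 table of log2 values for 29153 probe sets and 17 arrays, made with RMA and limma per the submitters' processing notes; no version, setting or build could be read from the notes. RMA quantile-normalizes arrays, so a shift of most RNAs one way would not appear. The 18th column, GRα with RU486 replicate A, is empty because the array failed quality control, per its label. No arrays held identical values.

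Names come from the platform's annotation and were brought up to date with RefSeq's gene table, matching Entrez numbers (19429 of 19460 probe sets with 1 symbol). Another 1754 had several symbols and 7939 none, and these stayed out of the gene tests, so FKBP5, CYP21A2 and NR0B1 are not analysed here. Where a gene had more than 1 probe set (769 genes), that of highest average signal across the arrays stood for it.

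All comparisons come from a single fit in limma 3.58.1 (R 4.3.3) with a mean per group over 17 arrays (11 residual and 5.89 prior degrees of freedom), two-sided, adjusted over 18417 genes. Errors are SE from the fit, 95% intervals likewise. Replicate letters were not taken as pairs. Members, the 30 gene lists (400 of 436 genes measured) and tests were chosen with earlier results of these data known. The rule named every called gene, of which 1 is not reported here, gave arrays for the 12 largest rises and 8 largest falls, and added 24 fixed genes, called list members, genes differing between the lines and the 5 uncalled genes with the lowest adjusted p. Arrays of further genes and uncalled list members with separated arrays were added after their values were seen. The fit was tested on simulated data.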

Additional observations from a re-analysis of the deposited data

Results flagged for a closer look

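The response in control cells differed from that in GRα cells for 12 of 18417 genes (limma, adjusted p under 0.05), and all 12 differences, given as control minus GRα on the log2 scale, are below 0. Among the genes that rose in control cells, ZBTB16 differed by −1.07 ± 0.12 (SE), RASGRF1 by −1.03 ± 0.14 and OR7A5 by −0.95 ± 0.11. The other 9 were not called in control cells. TMEM100 differed by −1.35 ± 0.18 (0.37 in control and 1.72 in GRα cells), NNMT by −0.88 ± 0.13 (0.16 and 1.04), MAOA by −0.85 ± 0.12 (0.16 and 1.01), SYDE2 by −0.81 ± 0.12 (0.15 and 0.96) and VCL, the adhesion protein vinculin, by −0.72 ± 0.12 (0.35 and 1.08). LGR5, a receptor of Wnt-enhancing R-spondins, differed by −0.62 ± 0.11 (0.13 and 0.75), GREB1L by −0.59 ± 0.10 (0.22 and 0.81), CSRNP1 by −0.59 ± 0.10 (0.21 and 0.80) and JADE1 by −0.53 ± 0.09 (0.26 and 0.79). Of these 9, MAOA, VCL, GREB1L, CSRNP1 and JADE1 had every dexamethasone array above every vehicle array in control cells, as had 5.04% of all genes. The 9 were picked by a difference that uses the same control arrays, so this only describes them.

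Probe sets that carry several gene symbols or none were tested apart from the genes, over all 29153 probe sets. Of 1754 with several symbols 1 was called, higher with dexamethasone by 0.922 log2, and of 7939 with none 0 were called by limma.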

How the results depend on the processing

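Counts are of genes called by limma, 48 (39 higher, 9 lower) for dexamethasone in control cells and 12 (0 higher, 12 lower) for the difference between the lines. Without each replicate in turn they ran from 17 to 23 (15 to 21 higher, 1 to 2 lower) and from 6 to 15 (0 to 1 higher, 6 to 14 lower). Array weights gave 148 (97 and 51) and 22 (3 and 19), a trend in eBayes 72 (60 higher) and 19 (19 lower), only the 6 or 12 arrays compared 23 (22 and 1) and 5 (5 lower), and a threshold of 0.01 16 (15 and 1) and 5 (5 lower). Leaving aside GRα vehicle B gave 82 (64 and 18), centring on medians 5 lower, and leaving out the dimmest 25% of genes 1 higher in the difference between the lines. The replicate block gave 35 (31 and 4) and 8. Deviations of control vehicle and dexamethasone arrays of the same letter correlated at 0.324, 0.147 and −0.024 for A, B and C. Across different letters they correlated at −0.366 to 0.274. Deviations within a group cancel out, so these values cannot settle whether the letters pair the samples. No pairing was assumed. The glucocorticoid-induced list had 5 calls with array weights and 3 without each replicate in turn. The steroid synthesis list had 0 with only the 6 arrays, at 0.01 and without each replicate in turn (0 to 0). The cause of these shifts was not tested, beyond the fewer arrays or the stricter threshold by construction. The sign turned only for uncalled genes: MC2R (0.0201 with array weights, 0.0422 without control vehicle A, 0.0147 without dexamethasone A), NR3C1 (0.0033 without vehicle A, 0.0318 without dexamethasone C), CYP11B1 (−0.0193 without vehicle A, −0.0418 without dexamethasone B), CYP11A1 (−0.022 without vehicle C) and SULT2A1 (0.0139 without dexamethasone C), where the cause was not tested; without each replicate in turn NR3C1 ran from −0.0598 to 0.0318, CYP11A1 from −0.022 to 0.0648, CYP11B1 from −0.0418 to 0.1394, SULT2A1 from −0.1545 to 0.0139 and MC2R from −0.1461 to 0.0422. For the genes called in control cells, fits without 1 array could not turn the sign, because their groups did not overlap. The other settings, which were quantile normalization again, robust eBayes, 9 arrays, the mean of probe sets and each probe set by itself, kept both counts within 1.5 times. The median SE was 0.0854 log2, and the smallest called fall was −0.29 (CCND2).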

Other observations

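Among genes of ACTH and angiotensin signalling that were not called in control cells, the largest value was that of the protein kinase C gene PRKCH, which stood 0.40 ± 0.10 log2 higher with dexamethasone (SE, limma adjusted p = 0.202) with no overlap of arrays and was called in GRα cells at 1.17 log2. CACNA1C, a calcium channel subunit, stood 0.32 ± 0.10 higher in control cells (limma adjusted p = 0.447). The lowest value of that list was −0.27 ± 0.10 log2, for KCNK9. Genes that differed by 0.5 log2 or more without a call were OR2L8 and ABLIM1.

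In a principal component analysis of the 6 arrays, the first component held 34.6% of the variance and the second 21.9%. On the first the groups were mixed, with scores of 12.9, −6.39 and 2.32 for vehicle and 6.97, −5.86 and −9.95 for dexamethasone. The vehicle arrays had second-component scores of 5.05, 9.44 and 2.87 and the dexamethasone arrays −10.05, −3.46 and −3.85, so the groups lay apart on the second component, which is not the largest.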
